A study of Mus musculus with 6 samples.

Results

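Skeletal muscle stores glucose as glycogen and burns it through glycolysis, and the fast fibers that dominate mouse limb muscle depend on this route for short bursts of work. Glucose enters through transporters, is trapped by hexokinase, and is committed to glycolysis at the phosphofructokinase step. That step is tuned by fructose 2,6-bisphosphate, a signal molecule made and removed by the PFKFB enzymes. The last steps give pyruvate, which is turned into lactate or sent to the mitochondria, while glycogen synthase and glycogen phosphorylase fill and empty the store. The 38 genes described here encode these enzymes, transporters and regulators. They were taken by symbol from the 52550 mouse genes of the deposited table, and membership rests on the symbol alone.

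The samples were skeletal muscle from 3 male FLExDUX4 mice and 3 male wild-type littermates. FLExDUX4 mice are hemizygous for a human DUX4 transgene placed in reverse orientation at the Gt(ROSA)26Sor locus of a B6(Cg) background, between lox sites. No Cre driver is named for these mice, and the low DUX4 expression in the model is leakage from the inverted transgene. The labels give quadriceps at 13 weeks for all 6 mice, whereas the methods of the study name the triceps and a younger age for the sequenced RNA. RNA was read by QuantSeq, which places about 1 read near the 3′ end of each transcript, so levels are given as CPM, the counts scaled to a common library size, and were not divided by gene length. The human transgene was not analysed here.

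The comparison asks how far the sugar-burning program of muscle differed between the genotypes. The deposited table gives 1 raw total per genotype, 13110125 gene counts for FLExDUX4 and 18367364 for wild type. No values of single mice were used, so there was no replicate check, no test and no p-value, and a single mouse can decide a ratio. Each log2 ratio is FLExDUX4 over wild type after TMM scaling, which sets the bulk of genes to the same level in both totals, and stands with a 95% Clopper-Pearson interval that covers counting error only. In whole muscle, fewer cells of a type and less RNA per cell cannot be told apart. Scaling to the added spike-in RNAs instead lowers every log2 ratio by 0.28 (shift -0.28), and directions that depend on this choice are marked.

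After TMM scaling, most of the pathway stood at nearly the same level in both genotypes. Counts sufficed to compare 37 of the 38 genes, whose median log2 ratio was 0.06, beside -0.001 over all 13396 genes compared. Of these 37, 31 lay within 0.25 of 0 on the log2 scale, beside 46.3% of all genes compared, and 18 within 0.1, beside 22.01%. With spike-in scaling the median was -0.22, beside -0.28 over all genes, and 19 of the 37 lay within 0.25 of 0, beside 32.3% of all. The lowest ratio was that of Pfkfb3, which encodes a kinase that makes fructose 2,6-bisphosphate, with a log2 ratio of -0.88. The genes above 0.3 were Pfkp, Stbd1, Eno1, Fbp2 and Ppp1r3c, of which Ppp1r3c had many counts. Pgam1, the mutase gene of non-muscle tissues, had 2 counts in each total and was not compared.

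The 3 genes that were at least 1.5-fold higher in FLExDUX4 (Pfkp, Stbd1 and Eno1) are 8.11% of the 37, beside 13.2% of all genes compared. Eno1 was at 1.51-fold and fell short of 1.5-fold under 5 of the alternatives tried, which left 2 genes or, with spike-ins, 1. The 1 gene at least 1.5-fold lower (Pfkfb3) is 2.70% of them, beside 13.5%. With spike-in scaling the 1 gene still at least 1.5-fold higher was Pfkp, beside 7.82% of all genes. At 1.2-fold 5 of the 37 were higher and 1 lower, beside 26.1% of all genes in each direction, and at 2-fold 1 was higher, beside 5.99%, and 0 lower, beside 7.43%. Such folds are common among genes with few counts, so the 26 pathway genes with at least 1000 counts over both totals were also read against the 2727 genes of that depth. Among these, 0 of 26 were at least 1.5-fold higher, beside 0.843% of genes of that depth, and 1 of 26 was lower, beside 0.403%. The 26 genes had a median log2 ratio of 0.04, and 24 of them (92.3%) lay within 0.25 of 0, beside 82.7% of the 2727 genes. With spike-in scaling their median was -0.24 and 14 of them (53.8%) lay within 0.25 of 0, beside 42.4% of the 2727 genes. The pair outside that range after TMM scaling was Pfkfb3 and Ppp1r3c.

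Counting error left out a ratio of 0 for 13 of the 37 genes on the higher side, beside 20.5% of all genes compared, and for 7 on the lower side, beside 20.6%. With at least 1000 counts these numbers were 9 of 26 higher, beside 24.2%, and 7 of 26 lower, beside 24.8%. In abundant genes such an interval is narrow enough to leave out 0 for differences of a few percent. With spike-in scaling, 3 of the 37 intervals (Pfkp, Stbd1 and Ppp1r3c) lay above 0, beside 7.59% of all genes, and 26 below, beside 47.1%. Of the 17 genes whose interval held 0 after TMM scaling, 13 had an interval below 0 with spike-in scaling, and Slc2a1, Hk1, Pfkl and Pfkfb4 did not.

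**Figure D1:**
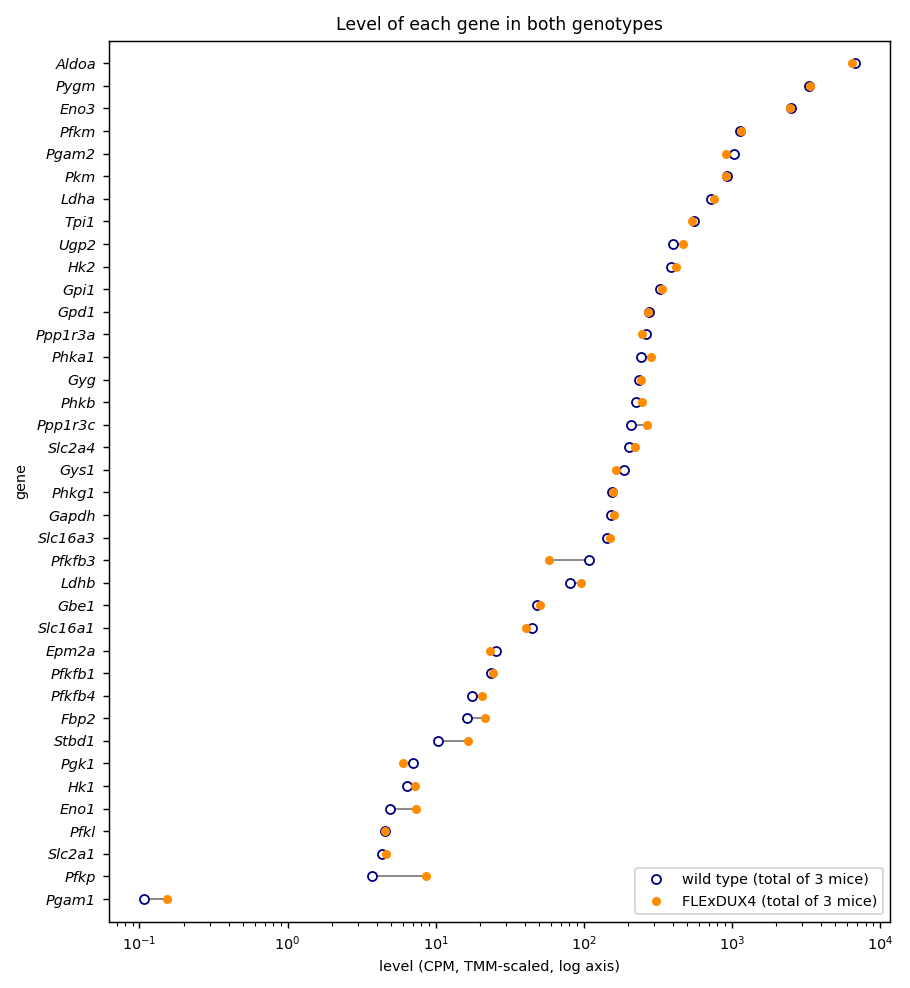
The level of each of the 38 genes (CPM after TMM scaling, log axis) in wild type (open circles) and FLExDUX4 (filled circles), each point the total of 3 mice, with genes ordered by their wild-type level. Most pairs of circles overlap, while pairs such as Pfkfb3, Stbd1 and Pfkp stand apart; Pgam1 at the bottom rests on 2 counts per genotype.

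The pathway held a like share of all gene counts in both genotypes. The 38 genes took 2.04% of FLExDUX4 counts (interval 2.03 to 2.05) and 2.10% of wild-type counts (2.09 to 2.10), a share that does not depend on scaling. Aldoa, Pygm and Eno3 alone took 1.22% and 1.27%. The other 35 genes together took 0.823% and 0.828%. These shares hold the counts as deposited, including those of Gapdh, Eno1 and Pgk1, whose limits are given below. Of the gap of -0.0575 percentage points between the totals, Aldoa made up -0.0400 and Pgam2 -0.0147.

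The levels of these genes, read per transcript, spanned several orders of magnitude, and the highest were those of muscle isozymes. The levels of Gapdh, Eno1 and Pgk1 are of limited use, as described below. Aldoa, aldolase A, was the highest of the 38, with 6481 CPM in FLExDUX4 and 6744 CPM in wild type, and ranked 21 and 20 among all genes. Pygm, muscle glycogen phosphorylase, followed with 3361 and 3316 CPM. Eno3, the muscle enolase, stood at 2461 and 2506 CPM. The order of these 3 genes was the same in both genotypes, and each was separated from the next by far more than its counting error.

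The defining transcripts of fast muscle were present at high levels in both totals. The 12 fast-fiber markers summed to 102488 CPM in FLExDUX4 and 105879 CPM in wild type, a log2 ratio of -0.05 (-0.32 with spike-in scaling). Of the 12, 11 were below 0 after TMM scaling and 12 with spike-in scaling. The 10 slow-fiber markers summed to 1167 and 1242 CPM (-0.09, or -0.37 with spike-in scaling). Of 10 adipocyte markers, 9 were above 0 (6 with spike-in scaling), with none at 0 counts, a median log2 ratio of 0.41 (0.14 with spike-in scaling) and a sum of 2391 CPM against 2231, a ratio of 0.10 that spike-in scaling turned to -0.18. Car3, which muscle also expresses, made up most of this sum, and the other 9 markers summed to 428 and 334 CPM (0.36, or 0.08 with spike-in scaling). The 6 erythrocyte markers summed to 1279 and 1020 CPM (0.33, or 0.05 with spike-in scaling), and one of them, Slc4a1, was at 0 in FLExDUX4. The endothelial sum had a log2 ratio of -0.02, the macrophage sum of -0.05 and the Schwann cell sum of 0.07 (-0.29, -0.33 and -0.21 with spike-in scaling). The endothelial markers differed among themselves, with 4 of 8 intervals below 0 (20.6% of all genes compared) and 2 above (20.5%), a median log2 ratio of -0.23, and ratios of -0.56 for Kdr and 0.73 for Esam. The fibroblast sum had a ratio of 0.19 (-0.09 with spike-in scaling). The part of these cell types in the ratios below was not tested.

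**Figure D2:**
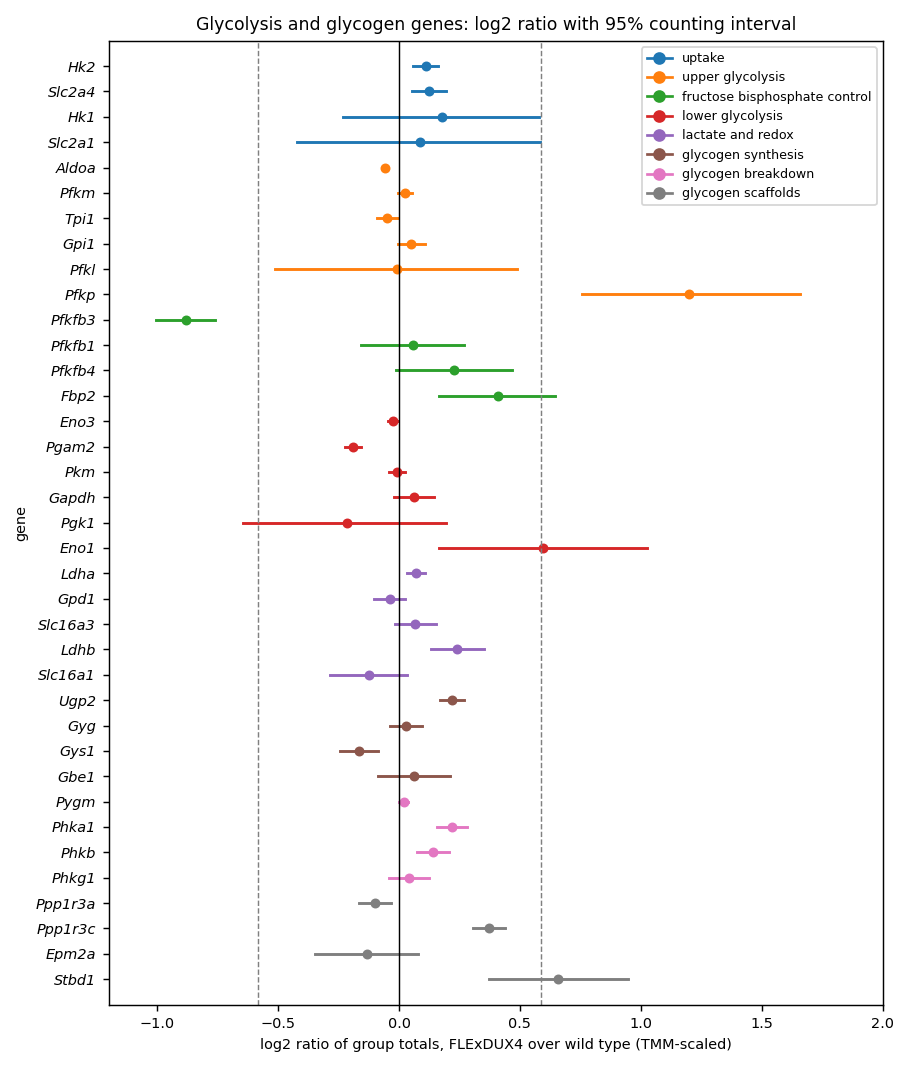
Log2 ratio of FLExDUX4 to wild type for the 37 genes compared, grouped by role (colour) and ordered by wild-type level within a role. Points are ratios of group totals, bars are 95% counting intervals and dashed lines mark 1.5-fold. Pfkfb3 lies wholly beyond the lower line, Pfkp wholly beyond the upper line, and most abundant genes sit close to 0; with spike-in scaling all points lie 0.28 further left (shift -0.28).

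Control of the phosphofructokinase step held the lowest ratio of the pathway. Pfkfb3 (chromosome 2 of GRCm38, 11471433 to 11554077, minus strand) had 760 counts in FLExDUX4 and 2004 in wild type, or 58.6 and 108 CPM. Its log2 ratio was -0.882 (interval -1.005 to -0.761), a fold of 0.543. Of the 1541 other genes whose counts over both totals lay within 2-fold of those of Pfkfb3, 1 had a lower ratio (0.0649%), and the other scalings gave ratios from -1.16 to -0.88. Pfkfb3 is the PFKFB gene whose product works chiefly as a kinase, raising fructose 2,6-bisphosphate and with it the flow through phosphofructokinase.

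The sister genes did not share this difference. Pfkfb1, which gives the muscle and liver enzyme, had 318 and 437 counts and a log2 ratio of 0.06 (interval -0.16 to 0.27). Pfkfb4 had 266 and 325 counts and a ratio of 0.23 (interval -0.01 to 0.47). Both intervals held 0, while spike-in scaling gave -0.22 for Pfkfb1, with an interval below 0 (-0.43 to -0.01), and -0.05 for Pfkfb4, with an interval that held 0. Within these 3 PFKFB genes, Pfkfb3 made up 56.5% of counts in FLExDUX4 (interval 53.8 to 59.2) and 72.5% in wild type (70.7 to 74.1). The share of Pfkfb1 was 23.7% against 15.8%, and that of Pfkfb4 was 19.8% against 11.7%. With Pfkfb2 (44 and 54 counts) included, Pfkfb3 made up 54.8% and 71.1%. These shares do not depend on scaling, and the ratio of Pfkfb3 to Pfkfb4 was 2.86 in FLExDUX4 and 6.17 in wild type.

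**Figure D3:**
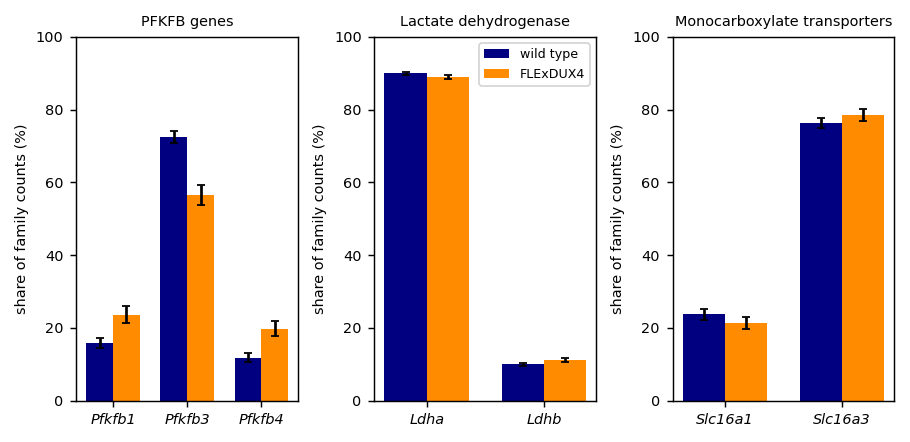
Share of family counts (percent, axis from 0 to 100) for 3 PFKFB genes (without Pfkfb2), the lactate dehydrogenase genes and the monocarboxylate transporter genes in wild type (dark bars) and FLExDUX4 (orange bars), with 95% Clopper-Pearson intervals for counting error. Pfkfb3 stood at 56.5% of these 3 genes in FLExDUX4 and 72.5% in wild type, while the other families differed by at most a few percentage points.

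Fbp2 encodes the muscle fructose bisphosphatase, which reverses the phosphofructokinase reaction. Fbp2 (chromosome 13, 62836877 to 62858422, minus strand) had 279 counts in FLExDUX4 and 301 in wild type, or 21.5 and 16.2 CPM. This gave a log2 ratio of 0.41 (interval 0.17 to 0.65), while spike-in scaling gave 0.13 with an interval that held 0 (-0.11 to 0.37). Of 3849 other genes of like depth, 392 (10.2%) had a higher ratio. The ratio of Fbp2 to Pfkm, chosen after the values were seen, was higher by 0.38 on the log2 scale (interval 0.15 to 0.62).

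Upstream sequences are shown for the 3 genes with a marked ratio whose promoter holds the hexamer CACGTG, an E-box letter pattern that clock and MYC family factors are known to bind. They were picked after the values were seen. Each is read from RefSeq on GRCm38.p6, on the strand of the gene, from 250 bases before to 50 bases after the listed start, with the hexamer in capitals. Pfkfb3 is given by the downstream one of its listed starts (chr2:11502041-11502340, minus strand), Ppp1r3c by chr19:36736555-36736854 (minus strand) and Fbp2 by chr13:62858351-62858650 (minus strand).
Pfkfb3: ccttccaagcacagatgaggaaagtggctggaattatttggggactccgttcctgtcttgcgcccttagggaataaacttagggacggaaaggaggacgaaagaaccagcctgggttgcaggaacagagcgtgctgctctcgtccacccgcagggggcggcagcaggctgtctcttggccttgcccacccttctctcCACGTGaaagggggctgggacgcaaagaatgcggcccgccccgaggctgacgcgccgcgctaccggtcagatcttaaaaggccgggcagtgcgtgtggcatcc
Ppp1r3c: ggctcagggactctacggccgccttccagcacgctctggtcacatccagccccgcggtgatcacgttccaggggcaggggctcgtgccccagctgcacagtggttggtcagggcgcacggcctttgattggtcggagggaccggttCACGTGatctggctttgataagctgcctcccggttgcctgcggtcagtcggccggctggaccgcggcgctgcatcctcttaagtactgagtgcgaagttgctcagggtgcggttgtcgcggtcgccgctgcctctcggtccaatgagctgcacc
Fbp2: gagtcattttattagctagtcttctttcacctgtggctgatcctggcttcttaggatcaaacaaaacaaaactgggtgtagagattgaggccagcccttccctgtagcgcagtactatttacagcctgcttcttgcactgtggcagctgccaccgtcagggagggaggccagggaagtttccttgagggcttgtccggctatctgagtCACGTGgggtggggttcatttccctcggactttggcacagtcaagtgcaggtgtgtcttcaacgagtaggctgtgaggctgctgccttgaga

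The hexamer stood 47 bases before the start in Pfkfb3, 98 bases before it in Ppp1r3c and 36 bases before it in Fbp2. It reads the same on both strands. It was found in 7 of the 51 listed promoters of the pathway (13.7%), each from a different gene, and in 7.15% of 32851 promoters in all. The other 4 genes were Gyg, Ldha, Pfkm and Slc16a1, whose log2 ratios lay between -0.12 and 0.07. So the genes with the hexamer stood below, near and above 0. No listed promoter of Pfkp, Stbd1 or Eno1, the genes with the highest ratios, held the hexamer, and neither did the other listed promoters of Pfkfb3. The forkhead pattern GTAAACA, searched on both strands, was in 0 of the 51 and in 3.65% of all promoters. TGACG, part of the cyclic AMP response element, was in 23.5% of the 51 and in 20.8% of all. Promoters of Slc2a4 and Gpd1 were not used.

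Glucose uptake and trapping differed little. Slc2a4 encodes GLUT4, the transporter that insulin and contraction bring to the fiber surface. It had 2859 counts in FLExDUX4 and 3749 in wild type (220 and 202 CPM) and a log2 ratio of 0.13 (interval 0.05 to 0.20), while spike-in scaling gave -0.15. Hk2, the insulin-responsive hexokinase of muscle, had 5469 and 7247 counts and a ratio of 0.11 (interval 0.06 to 0.16), while spike-in scaling gave -0.17. The genes for the widely expressed forms, Slc2a1 (60 and 81 counts) and Hk1 (94 and 119 counts), had ratios of 0.09 and 0.18 with intervals that held 0, both below 0 with spike-in scaling. Hk1 made up 1.69% of the hexokinase pair in FLExDUX4 and 1.62% in wild type, and Slc2a1 made up 2.06% and 2.11% of its pair with Slc2a4.

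Upper glycolysis was nearly level. Pfkm, muscle phosphofructokinase, had 14922 counts in FLExDUX4 and 20987 in wild type (1150 and 1131 CPM) and a log2 ratio of 0.02 (interval -0.01 to 0.05). Gpi1, which isomerizes glucose 6-phosphate, had a ratio of 0.05 (interval -0.01 to 0.11). Both ratios were below 0 with spike-in scaling, and that of Pfkm also with total gene counts. Aldoa (chromosome 7, 126795234 to 126800751) had 84096 and 125167 counts and a ratio of -0.06 (interval -0.07 to -0.04). Tpi1, which interconverts the products of aldolase, had 6983 and 10327 counts and a ratio of -0.05 (interval -0.09 to -0.00). The differences of Aldoa and Tpi1 were a few percent and lay outside counting error alone.

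Pfkp, the phosphofructokinase gene of platelets and other non-muscle cells, had the highest ratio of the pathway. Pfkp (chromosome 13, 6579768 to 6648777) had 111 counts in FLExDUX4 and 69 in wild type, or 8.56 and 3.72 CPM, a log2 ratio of 1.198 (interval 0.756 to 1.657) and a fold of 2.29. Of 4001 other genes of like depth, 47 (1.17%) had a higher ratio. Pfkp made up 0.735% of phosphofructokinase counts in FLExDUX4 and 0.326% in wild type, so the bulk of these transcripts stayed with Pfkm. Pfkl, the liver form, had 59 and 85 counts and a ratio of -0.01 (interval -0.51 to 0.49).

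In lower glycolysis, Pgam2 was lower and the other abundant genes lay near 0. Pgam2, the muscle phosphoglycerate mutase (chromosome 11, 5801640 to 5803733), had 11818 counts in FLExDUX4 and 19262 in wild type (911 and 1038 CPM). Its log2 ratio was -0.19 (interval -0.22 to -0.16), a fold of 0.878. Eno3 (chromosome 11, 70657202 to 70662513) had 31925 and 46513 counts and a ratio of -0.03 (interval -0.05 to -0.01). Pkm, pyruvate kinase, had 11898 and 17105 counts and a ratio of -0.01 (interval -0.04 to 0.03). Measured against Eno3 within each total, Pgam2 was lower by 0.16 on the log2 scale (log2 ratio of the ratios -0.16, interval -0.20 to -0.12), so the difference was smaller in Eno3 than in Pgam2.

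A few genes of lower glycolysis had values of limited use. Pgk1, phosphoglycerate kinase, had 78 and 130 counts, far fewer than its neighbours, and a log2 ratio of -0.22 (interval -0.64 to 0.20). Gapdh had 2066 and 2829 counts and a ratio of 0.06 (interval -0.02 to 0.15), below 0 with spike-in scaling. Eno1, the enolase of most other tissues, had 96 and 91 counts and a ratio of 0.59 (interval 0.16 to 1.02), while spike-in scaling gave 0.32 with an interval that held 0 (-0.11 to 0.75). Reads of Gapdh and Eno1 are uncertain. Of the 50-base windows in the last 400 bases of their main transcripts, 87.7% and 83.8% also occur in other annotated genes (116 and 5 genes), and how reads with several matches were counted is not given in the sources used here. For 32 of the 38 genes no such window was shared.

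Lactate handling was close to level, with a small shift towards Ldhb. Ldha, the subunit that favours making lactate, had 9899 counts in FLExDUX4 and 13483 in wild type and a log2 ratio of 0.07 (interval 0.03 to 0.11), while spike-in scaling gave -0.21. Ldhb, the heart subunit, had 1238 and 1499 counts and a ratio of 0.24 (interval 0.13 to 0.35), while spike-in scaling gave -0.04. Ldhb made up 11.1% of the pair in FLExDUX4 (interval 10.5 to 11.7) and 10.01% in wild type (9.53 to 10.5). These intervals do not overlap, but the spread between mice is not in them.

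The lactate transporters and the cytosolic glycerol 3-phosphate dehydrogenase had intervals that held 0 after TMM scaling and lay below 0 with spike-in scaling. Slc16a1 (MCT1, which takes lactate up into oxidative fibers) had 531 and 828 counts and a log2 ratio of -0.12 (interval -0.28 to 0.03). Slc16a3 (MCT4, which exports lactate from fast fibers) had 1950 and 2664 counts and a ratio of 0.07 (interval -0.02 to 0.15), below 0 with spike-in scaling. Within the pair, Slc16a1 took 21.4% of counts in FLExDUX4 and 23.7% in wild type. Gpd1, which uses NADH to make glycerol 3-phosphate, had a ratio of -0.04 (interval -0.10 to 0.02).

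**Figure D4:**
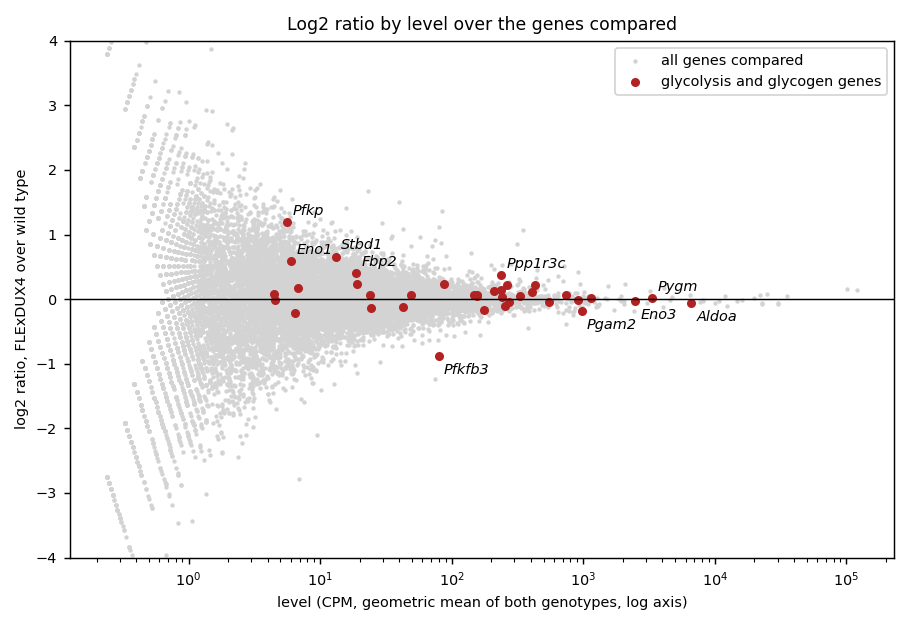
Log2 ratio of FLExDUX4 to wild type against level (CPM, geometric mean of both genotypes, log axis) for the genes compared (grey) and the 37 pathway genes (red). The axis stops at 4 in both directions. The spread of grey points narrows with level; Pfkfb3 and Ppp1r3c lie at the edge of the cloud at their level, while Fbp2, Eno1 and Stbd1 lie within it.

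Among the genes that build glycogen, Gys1 was lower, and Ugp2 was higher except with spike-in scaling. Ugp2, which makes the UDP-glucose that glycogen synthase uses, had 6039 counts in FLExDUX4 and 7421 in wild type (465 and 399.9 CPM). Its log2 ratio was 0.22 (interval 0.17 to 0.27), but -0.06 with spike-in scaling. Gys1, muscle glycogen synthase (chromosome 7, 45434844 to 45456619), had 2159 and 3465 counts and a ratio of -0.17 (interval -0.24 to -0.09), while spike-in scaling gave -0.44. Gyg, the glycogenin that primes the chain, had a ratio of 0.03 (interval -0.04 to 0.09), and Gbe1, the branching enzyme, of 0.06 (interval -0.09 to 0.21), both below 0 with spike-in scaling, and Gyg also with total gene counts.

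Among the genes that break glycogen down, Pygm was level and the regulatory subunits of phosphorylase kinase were slightly higher except with spike-in scaling. Pygm (chromosome 19, 6384399 to 6398459) had 43610 counts in FLExDUX4 and 61550 in wild type and a log2 ratio of 0.02 (interval 0.00 to 0.04), while total gene counts gave -0.01 and spike-ins -0.26. Phka1, the alpha subunit of muscle phosphorylase kinase, had 3701 and 4549 counts and a ratio of 0.22 (interval 0.16 to 0.28), while spike-in scaling gave -0.06. Phkb, the beta subunit, had 3215 and 4173 counts and a ratio of 0.14 (interval 0.07 to 0.21), while spike-in scaling gave -0.14. Phkg1, the catalytic subunit, had 2060 and 2862 counts and a ratio of 0.04 (interval -0.04 to 0.12), below 0 with spike-in scaling. Set against each other within a total, Phka1 to Phkb differed by 0.08 (interval -0.01 to 0.17) and Phkg1 to Phkb by -0.10 (interval -0.20 to 0.01), and both intervals held 0. Phka1 to Phkg1 differed by 0.18 (interval 0.07 to 0.28), outside counting error, although 19.7% of the 3′ windows of Phkg1 also occur in other genes.

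Ratios within a total put synthase and phosphorylase side by side without any scaling. Gys1 had 0.0495 counts per Pygm count in FLExDUX4 and 0.0563 in wild type, a log2 ratio of -0.19 (interval -0.26 to -0.11). Ugp2 had 2.80 counts per Gys1 count in FLExDUX4 and 2.14 in wild type, a log2 ratio of 0.39 (interval 0.29 to 0.48). These pairs were chosen after the values were seen.

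Of the 4 genes for proteins that bind or regulate the glycogen particle, Ppp1r3c and Stbd1 were higher, and Ppp1r3a and Epm2a had ratios below 0. Ppp1r3c encodes PTG, a subunit that brings protein phosphatase 1 to glycogen, where it favours synthesis. It had 3495 counts in FLExDUX4 and 3861 in wild type (269 and 208 CPM) and a log2 ratio of 0.37 (interval 0.31 to 0.44), a fold of 1.29, while spike-in scaling gave 0.10. Of 593 other genes of like depth, 11 (1.85%) had a higher ratio. Ppp1r3a, the main striated-muscle subunit of the same phosphatase, had 3199 and 4900 counts and a ratio of -0.10 (interval -0.16 to -0.03). Ppp1r3c had 1.09 counts per Ppp1r3a count in FLExDUX4 and 0.788 in wild type, a log2 ratio of the ratios of 0.47 (interval 0.38 to 0.56). Which transcript of the pair was the more abundant within a genotype was not tested.

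Stbd1, which binds glycogen and anchors it to internal membranes, had 214 counts in FLExDUX4 and 194 in wild type (16.5 and 10.5 CPM). Stbd1 (chromosome 5, 92603041 to 92606579) had a log2 ratio of 0.66 (interval 0.37 to 0.95), a fold of 1.58, while spike-in scaling gave 0.38. Of 4110 other genes of like depth, 153 (3.72%) had a higher ratio. Epm2a, the glycogen phosphatase laforin, had 302 and 474 counts and a ratio of -0.13 (interval -0.35 to 0.08), so its interval held 0.

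Neighbouring genes were read from 6 lists, which were drawn up with earlier results of these data known. Glucose uptake and insulin signalling held 14 genes, of which 5 had an interval above 0 and 3 below, with a median log2 ratio of 0.02 (-0.26 with spike-in scaling). With spike-in scaling 3 of the 14 ratios were above 0 in place of 9, and only Slc2a3 kept an interval above 0. For this and the following lists, 20.5% of all genes compared had an interval above 0 and 20.6% below (7.59% and 47.1% with spike-in scaling). Interval counts of the lists are after TMM scaling, and with spike-in scaling every interval lies 0.28 further left (shift -0.28). Slc2a3 (GLUT3, the transporter of neurons and blood cells) had 101 and 78 counts and a ratio of 0.89 (interval 0.45 to 1.33). Slc2a8 had 109 and 108 counts and a ratio of 0.53 (interval 0.13 to 0.93), while spike-in scaling gave 0.25 with an interval that held 0. The insulin receptor substrates were lower. Irs1 had 46.8 CPM in FLExDUX4 and 75.2 CPM in wild type, and Irs2 had 347 and 616 counts with a ratio of -0.31 (interval -0.51 to -0.12).

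Among genes that steer pyruvate, Pdk4 combined many counts with a high ratio. Of 19 compared, 6 had an interval above 0 and 2 below after TMM scaling, with a median log2 ratio of 0.01 (-0.26 with spike-in scaling). With spike-in scaling 5 of the 19 ratios were above 0 in place of 11, and only Pdk4 and Pcx kept an interval above 0. Pdk4, the kinase that shuts pyruvate dehydrogenase, had 5470 counts in FLExDUX4 and 4329 in wild type (422 and 233 CPM) and a log2 ratio of 0.85 (interval 0.80 to 0.91), while spike-in scaling gave 0.58. Pdp1, a phosphatase that reopens the enzyme, had 381 and 717 counts and a ratio of -0.39 (interval -0.58 to -0.21). Pdp2, the other phosphatase, had 129 counts in each total and a ratio of 0.52 (interval 0.15 to 0.88), which comes from the scaling. After TMM scaling the phosphatases thus differed in direction. With spike-in scaling Pdp2 was at 0.24 with an interval that held 0, and Pdp1 was at -0.67. Pcx, pyruvate carboxylase, had 262 and 216 counts and a ratio of 0.79 (interval 0.53 to 1.06). Within the kinases, Pdk4 had 2.07 counts per Pdk2 count in FLExDUX4 and 1.04 in wild type. Pcx is also known from fat, and the adipocyte markers had a median log2 ratio of 0.41 (0.14 with spike-in scaling), but their part in these values was not tested.

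After TMM scaling other glycogen genes stood on both sides of 0, with 7 intervals above 0 and 6 below among 19 compared. Their median log2 ratio was 0.06 (-0.22 with spike-in scaling). With spike-in scaling 5 of the 19 ratios were above 0 in place of 12, and only Nhlrc1 and Pgm1 (37 and 19 counts) kept an interval above 0. Nhlrc1, the ubiquitin ligase malin that works with laforin, had 102 and 61 counts and a ratio of 1.25 (interval 0.79 to 1.74). Gsk3b, a kinase that inhibits glycogen synthase, had a ratio of 0.27 (interval 0.20 to 0.34), and Ppp1cb, a catalytic subunit of protein phosphatase 1, of 0.21 (interval 0.14 to 0.28), both below 0 with spike-in scaling. Prkag3, the AMPK subunit of fast muscle, had a ratio of -0.29 (interval -0.42 to -0.17). Few other glycolysis genes could be compared, 9 of 19, and 8 of these ratios were below 0 with spike-in scaling. After TMM scaling 1 of the 9 had an interval that left out 0. This was Tigar, a phosphatase that lowers fructose 2,6-bisphosphate, with 1074 and 1728 counts and a ratio of -0.17 (interval -0.28 to -0.06).

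The pentose phosphate pathway shares glucose 6-phosphate with glycolysis. After TMM scaling it had 3 intervals above 0 and 1 below among 8 genes, with a median log2 ratio of 0.25 (-0.03 with spike-in scaling). Pgls had a ratio of 0.48 (interval 0.24 to 0.71), H6pd of 0.42 (interval 0.19 to 0.65) and Taldo1 of 0.19 (interval 0.07 to 0.30). With spike-in scaling these ratios were 0.20, 0.14 and -0.09, and all 3 intervals held 0. Rpia, an isomerase of the branch that makes ribose, had 271 and 531 counts and a ratio of -0.45 (interval -0.67 to -0.24). Of 5 glucose-sensing genes, Mlx had an interval above 0 (ratio 0.42, interval 0.13 to 0.70), but spike-in scaling gave 0.14 with an interval that held 0. Its partners Mlxip and Mlxipl, which sense glucose metabolites, had ratios of -0.17 and -0.12 with intervals that held 0. With spike-in scaling these 2 ratios were -0.45 and -0.39, with intervals below 0. Txnip, a target of these factors that restrains glucose uptake, had 339 CPM in both genotypes after TMM scaling, while spike-in scaling gave a ratio of -0.28.

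**Figure D5:**
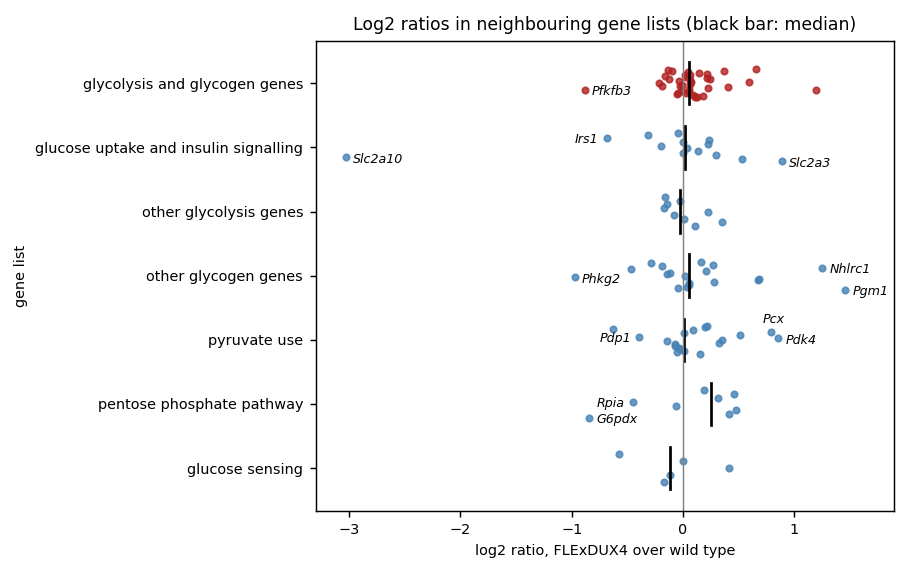
Log2 ratio of FLExDUX4 to wild type for the 37 pathway genes (red) and for the genes compared in 6 neighbouring lists (blue), 1 point per gene with the median of each list as a black bar. List medians lie between -0.12 and 0.25, and the points far from 0 are mostly genes with few counts, as for Slc2a10 with 1 count in FLExDUX4 and 17 in wild type; with spike-in scaling all points lie 0.28 further left (shift -0.28).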

How the data were processed

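The authors trimmed QuantSeq reads with Cutadapt 1.16, aligned them with STAR 2.5.3a to GRCm38 joined to spike-in sequences, and compared genotypes with DESeq2. The submitters' processing notes also name featureCounts 1.6.2. The deposited table lists 52649 features, 99 of them spike-ins, with raw counts summed over each genotype. Its columns of the authors' comparison (mean, fold change, standard error, Wald statistic and p-values) were not used. A further 6 columns of values per sample carry names that match no sample label and were not used in any step, so the edgeR quasi-likelihood test planned for values per mouse was not run. No p-value is reported.

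With edgeR 4.0.16 under R 4.3.3, filterByExpr kept 13396 genes and TMM scaled the totals. Spike-ins (220016 and 259913 counts) were left out of library totals. Log2 ratios used a pseudocount of 0.5. The 95% Clopper-Pearson intervals (scipy 1.17.1, Python 3.11.15) treat each read as an independent draw and hold no spread between mice. The script was tested on simulated data. A total of at most 3 counts was taken as the floor. Genes of like depth had counts over both totals within 2-fold. The row of each symbol with counts was used where a symbol stood on several rows (Aldoa).

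All 38 genes are named. From each neighbouring list up to 4 genes with the largest absolute log2 ratio were named, among those with at least 100 counts and an interval leaving out 0. Other genes, the gene pairs and the limit of 1000 counts were chosen after their values were seen. The genes and lists were chosen with earlier results of these data known. Gene coordinates are from GENCODE M21 (GRCm38), printed where the start equals the deposited one (36 of 38 genes). Shared windows come from its transcripts, and promoters from RefSeq (36 genes matched). Other scalings, pseudocounts and filters were tried as alternatives.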

Additional observations from a re-analysis of the deposited data

How the results depend on the processing

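No paired analysis was possible because columns per mouse match no label. The edgeR test with a replicate block and the runs leaving out each mouse were not run for the same reason. The precision is limited by counting in genes such as Pfkl, Slc2a1 and Pgk1 and, for every gene, by the unmeasured spread between mice.

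RLE scaling, TMM without the 38 genes and pseudocounts of 1 and 5 left all 37 log2 ratios within their counting intervals. Total gene counts turned Pygm to -0.01063 and took Aldoa (-0.0873) and Eno3 (-0.0565) below their intervals, as upper quartile scaling (-0.0734) and at least 10 counts in each total (-0.0718) did for Aldoa. Spike-in totals changed the direction of 19 of 37 genes. Among those with an interval leaving out 0, these were Slc2a4 (-0.1505), Hk2 (-0.1657), Ldha (-0.2053), Ldhb (-0.03547), Pygm (-0.2567), Ugp2 (-0.05686), Phka1 (-0.05718) and Phkb (-0.1358). With spike-in totals 5 genes were above 0 in place of 24, 1 was at least 1.5-fold higher in place of 3 (2 with upper quartile scaling, total gene counts, no filter or at least 10 counts in each total, where Eno1 was lost), 3 intervals lay above 0 (7.59% of all genes) and 26 below (47.1%), and the median was -0.2176. List medians became -0.2559 for uptake, -0.2998 for other glycolysis genes, -0.219 for other glycogen genes, -0.2637 for pyruvate use and -0.3931 for glucose sensing. What causes that shift was not tested.

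At 1.2-fold, 5 genes were higher (26.1% of all genes), and at 2-fold 1 was higher (5.99%) and 0 were lower (7.43%). With at least 1000 counts, chosen after seeing the data, 0 were at least 1.5-fold higher. The share of counts on the 38 genes was 3.619% and 3.640% without the 10 genes with the most counts, and 2.006% and 2.068% with spike-ins included. With spike-in totals the intervals of Pfkp, Stbd1 and Ppp1r3c stayed above 0, while those of Eno1 and Fbp2 held 0.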
